A study of Mus musculus with 6 samples.

Results

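Rows annotated as piRNA in the small RNA count table of astrocyte EVs and NSC EVs were examined. The rows were chosen by their counts: a row had to have at least 10 counts summed over the 6 libraries, and 960 of the 6424 piRNA rows met that minimum. EVs are membrane vesicles that cells release with RNA and protein inside. The EVs came from primary cortical astrocytes, grown from CD1 mouse pups at postnatal day 4 and shaken to remove microglia and oligodendrocytes, and from primary NSCs of the neonatal CD1 subventricular zone. There were 3 libraries per EV type, no allele or agent was applied to either group, and the comparison is between cell types grown as separate cultures, so that cell type and culture conditions cannot be told apart. Astrocyte medium held 2% fetal bovine serum when EVs were taken. Non-hairpin rows held from 44218109 counts (NSC EV replicate 2) to 111276337 counts (astrocyte EV replicate 3) per library, and piRNA rows held from 331769 to 600563 of them. Nothing in the labels says that the 3 libraries of an EV type came from separate cultures, so p-values measure the spread between these libraries, which may be technical.

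PIWI-interacting RNAs (piRNAs) are short RNAs that are loaded into PIWI proteins, cousins of the Argonaute proteins that carry miRNAs. They are made mainly in germ cells from long single-stranded precursors that are transcribed from genomic clusters, and they silence transposons. A mature piRNA typically begins with U, and one made by cleavage guided by another piRNA typically has A at base 10. Piece-like RNAs cut from rRNA, tRNA, Y RNA and snoRNA can have the same length as piRNAs, so the other RNA classes at the position of each row are given with its counts.

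The most abundant rows lay inside known structural RNAs. Their host transcripts are shown first because most counts came from them, with the stretch that the piRNA row covers in capitals. The sequences are from GENCODE vM21 transcripts on mm10, written 5′ to 3′ with T for U. mmu_piR_000691 covers the 3′ end of a 5S rRNA copy (n-R5s71, chr11:74319792-74319910, plus strand) and runs 1 base past it. mmu_piR_000935 covers the 5′ end of the Y RNA gene Rny1 (chr6:47788069-47788180, minus strand), and mmu_piR_022877 covers the 3′ part of the snoRNA Snord2 (chr16:23108953-23109021, plus strand).
n-R5s71: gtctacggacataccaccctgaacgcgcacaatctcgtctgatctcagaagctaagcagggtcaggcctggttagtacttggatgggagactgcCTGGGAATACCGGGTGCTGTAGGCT
Rny1: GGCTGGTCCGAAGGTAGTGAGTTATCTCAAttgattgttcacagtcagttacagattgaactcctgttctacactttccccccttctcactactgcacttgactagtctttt
Snord2: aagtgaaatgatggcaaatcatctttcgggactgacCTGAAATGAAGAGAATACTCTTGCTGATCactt

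A second set shows rows in 18S rRNA and rows on no other RNA class side by side, with bases 1 and 10 in capitals. The 18S rows mmu_piR_000639 (chr17:39847215-39847245), mmu_piR_000219 (chr17:39847612-39847638) and mmu_piR_000958 (chr17:39848175-39848201) are on the plus strand inside the 45S pre-rRNA gene. mmu_piR_021335 (chr17:66194537-66194561, minus strand) and mmu_piR_033881 (chr17:66199662-66199691, plus strand) lie on no other class, and neither does mmu_piR_000164 (chr1:24615937-24615968, minus strand), whose sequence is also found whole in the mitochondrial mRNA mt-Co1.
mmu_piR_000639: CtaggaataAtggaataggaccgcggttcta
mmu_piR_000219: AcgggaaacCtcacccggcccggacac
mmu_piR_000958: GtaggtgaaCctgcggaaggatcatta
mmu_piR_021335: TaaactaagTggtgcgtgggagaga
mmu_piR_033881: GtggataccAggttcaggcgtcttgtgccc
mmu_piR_000164: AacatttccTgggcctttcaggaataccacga

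Few rows held most of the counts, and those rows lay on other RNA classes. Of the 960 rows, 87 (9.06%) overlapped a tRNA, rRNA, rfam, snoRNA or miRNA row of the table on the same strand by at least 1 base, and 81 of these were covered whole. In the table as a whole 100 of the 6424 piRNA rows (1.56%) had such an overlap, and 13 of the 5464 rows under 10 counts (0.238%). No member overlapped another class on the opposite strand only. The overlapping rows had a median of 7050 counts over the 6 libraries, against 18 for the 873 rows on no other class. Since the rows were chosen on counts, these numbers describe the table and were not tested. Of the 79 rows with at least 1000 counts 56 lay on another class, and so did 29 of the 30 most abundant. The 10 most abundant rows held 55.9% of all piRNA counts. Among these, mmu_piR_038322 and mmu_piR_000362 cover nearly the same bases, so a read can be counted on both.

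**Figure D1:**
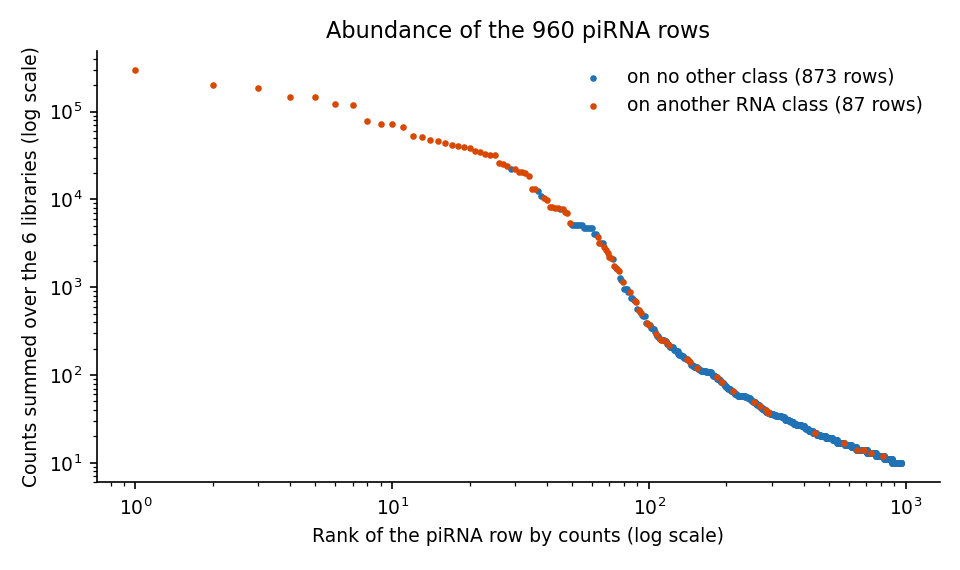
Counts of the 960 piRNA rows, summed over the 6 libraries (y axis, log scale), by rank (x axis, log scale). Each point is a row, orange for the 87 rows on another RNA class and blue for the 873 on none, and 29 of the first 30 points are orange.

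rRNA was by far the largest of the overlapping classes. Rows on rRNA (40 of the 87) took 87.1% ± 2.80 of piRNA counts in astrocyte EVs and 83.6% ± 0.615 in NSC EVs (SD, n = 3 each). The 873 rows on no other class took 3.86%, 5.99% and 3.63% of piRNA counts in the astrocyte EV libraries and 5.0%, 12.2% and 9.65% in the NSC EV libraries. The lowest NSC EV library thus lay inside the astrocyte EV range. Rows on any other class held 95.01% ± 1.37 of piRNA counts in astrocyte EVs, against 90.4% ± 3.70 in NSC EVs, and the groups overlapped (exact two-sided permutation test, p = 0.2). The 95% Wilson intervals of these shares in single libraries spanned at most 0.319 percentage points and cover counting error only, because the reads have no molecular identifiers.

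The kinds of rRNA differed between the EV types. 5S rRNA, a small RNA of the large ribosomal subunit, was covered by only 2 of the rows, and they held 36.5%, 32.6% and 26.6% of piRNA counts in the astrocyte EV libraries against 3.73%, 1.84% and 7.59% in the NSC EV libraries. The lowest astrocyte EV library was well above the highest NSC EV library. Rows on large-subunit rRNA (25 rows) went the other way, at 27.1% ± 2.40 in astrocyte EVs against 43.9% ± 4.52 in NSC EVs. Rows on small-subunit rRNA (13 rows) held 28.1% ± 0.849 and 35.3% ± 4.55. Among these, mmu_piR_038322 (chr6:3201475-3201505) and mmu_piR_000362 (chr6:3201474-3201503) cover nearly the same bases, with 147126 and 146848 counts. A read can be counted on both, and each held 4.5% of piRNA counts in astrocyte EVs and 7.2% in NSC EVs. None of the 3 groups of rows, on 5S, large-subunit and small-subunit rRNA, overlapped between the EV types. The exact two-sided permutation test gave p = 0.1 for each, the smallest p that 3 libraries against 3 allow, and an adjusted p of 0.225 over the 9 kinds of host RNA compared. Shares add up to a whole, so a higher 5S share lowers the others. In these bulk libraries, fewer vesicles with an RNA and less of that RNA per vesicle cannot be told apart.

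The rRNA rows of the table themselves, outside the piRNA annotation, differed in the same directions. All 5S rows together were 14.4% ± 2.49 of non-hairpin counts in astrocyte EVs and 3.72% ± 1.71 in NSC EVs. The large-subunit rows were 1.97% ± 0.424 and 6.19% ± 2.22. Of 258 5S rows tested with edgeR 73 were higher and 4 lower in astrocyte EVs. Of 203 large-subunit rows 1 was higher and 27 were lower. Among all 41308 rows tested 5.54% were higher and 4.24% lower.

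**Figure D2:**
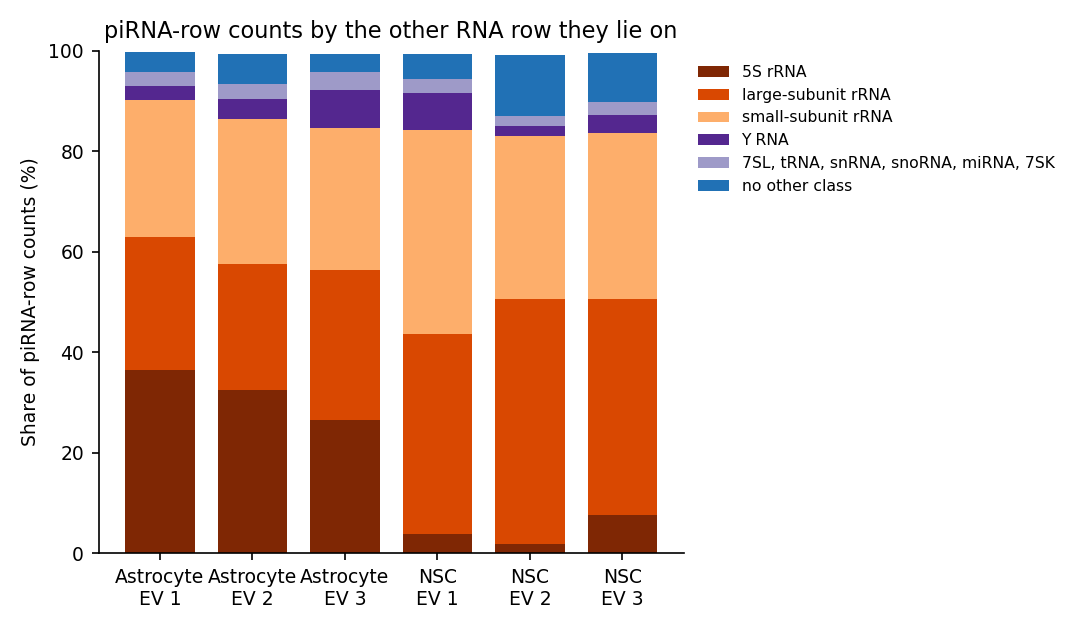
Share of piRNA-row counts (y axis, %) in each of the 6 libraries, stacked by the kind of RNA row that the piRNA row lies on. The gap below 100% is the rows under 10 counts. 5S rRNA takes 26.6% to 36.5% in the astrocyte EV libraries and 1.84% to 7.59% in the NSC EV libraries.

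The other hosts each held a small share. The single Y RNA row, mmu_piR_000935, had 12970, 12916 and 44974 counts in astrocyte EVs and 27823, 8503 and 14915 in NSC EVs. Y RNAs are small RNAs bound by the Ro60 protein. The groups overlapped for this row, with a log2 fold change (astrocyte EVs minus NSC EVs) of -0.10 ± 0.51 (SE), and an edgeR adjusted p of 0.922. It begins at the first base of the Y RNA and held 78.2% of the counts of the whole Y RNA row.

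Rows on the 7SL RNA, the RNA of the signal recognition particle, made 1.13% ± 0.085 of piRNA counts in astrocyte EVs and 0.623% ± 0.162 in NSC EVs, with no overlap (exact permutation p = 0.1, adjusted p = 0.225). All 3 of these rows lay between bases 87 and 122 of the 300-base host. Both tRNA rows lay on the same glycine tRNA with anticodon CCC, on chr17. mmu_piR_022097 covers bases 1 to 32 of that tRNA, its 5′ part, and mmu_piR_000366 covers bases 26 to 52. They held 88.9% and 77.0% of the counts of the 71-base tRNA row, and these shares add up to more than the host's own count. The tRNA rows were 0.562% ± 0.308 of piRNA counts in astrocyte EVs against 0.701% ± 0.063 in NSC EVs, and the groups overlapped (exact permutation p = 0.6).

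snoRNAs guide chemical changes in rRNA, and C/D box snoRNAs carry a C box near the 5′ end and a D box near the 3′ end. The most abundant row on a snoRNA was mmu_piR_022877, on bases 37 to 65 of the 69-base Snord2. It had 581, 622 and 1023 counts in astrocyte EVs and 262, 94 and 304 in NSC EVs. The groups did not overlap in CPM, but the row did not pass the test (log2 fold change 1.42 ± 0.50, edgeR adjusted p = 0.107). It held 95.6% of the counts of its host row. mmu_piR_004086 on bases 1 to 29 of SNORD57 held 97.7% of its host's counts, and mmu_piR_034793 on bases 44 to 71 of SNORD81 held 91.3%, so piRNA rows sat on either end of a snoRNA. Of the 12 snoRNA-hosted rows with a sequence 6 held the C box letters TGATGA and 10 the D box letters CTGA on the strand of the row, against 2.98% and 14.4% of all 1377 piRNA rows with a sequence. Of the 12 snoRNA-hosted rows tested edgeR called 0, while 5 had an unadjusted p under 0.05 and DESeq2 called 4. Of all rows tested edgeR called 9.78% and DESeq2 19.1%. The host was the shortest overlapping row, so a row on a snoRNA could have another host. Of all 13 tested rows that overlap a snoRNA row edgeR called 2 lower, among them mmu_piR_028252, whose host is a miRNA row.

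Rows on miRNAs repeated the miRNA rows. Of 17 such rows 16 had the same count as the miRNA row in all 6 libraries, and the other, mmu_piR_000273, lay on the hairpin row of mir-138-1 with 253 of its 272 counts. These rows are 22 bases long in the median, against 29 for rows on no other class. The values of the 16 are therefore those of the miRNAs, whose mature sequences (RefSeq, GRCm38.p6) are shown with the seed, bases 2 to 8, in capitals for the rows that passed the test and for the most abundant one. The seeds of all 5 differ. mmu_piR_028252 lies on miR-1839-5p (chr7:81529919-81529940, plus strand), mmu_piR_033077 on miR-672-5p (chrX:104116228-104116250, minus strand), mmu_piR_000273 on miR-138-5p (chr9:122682898-122682920, plus strand), mmu_piR_035888 on miR-3068-3p (chr12:87437685-87437706, minus strand) and mmu_piR_023310 on miR-449c-5p (chr13:113036008-113036028, plus strand).
miR-1839-5p: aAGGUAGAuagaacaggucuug
miR-672-5p: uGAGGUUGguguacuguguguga
miR-138-5p: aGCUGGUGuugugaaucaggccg
miR-3068-3p: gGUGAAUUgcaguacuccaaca
miR-449c-5p: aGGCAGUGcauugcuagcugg

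All 4 miRNA rows that passed were lower in astrocyte EVs, of 8 tested, beside 4.24% lower and 5.54% higher of all rows tested. mmu_piR_033077 had 19, 24 and 51 counts in astrocyte EVs and 173, 214 and 218 in NSC EVs. Every NSC EV library was far above every astrocyte EV library, with a log2 fold change of -3.12 ± 0.33 (edgeR adjusted p = 0.0125). mmu_piR_028252 had 37, 64 and 102 against 433, 305 and 211 counts (-2.63 ± 0.38, edgeR adjusted p = 0.0156). mmu_piR_000273, on miR-138-5p, a miRNA abundant in brain, had 2, 4 and 9 against 85, 88 and 65 counts (-4.46 ± 0.42, edgeR adjusted p = 0.0116). mmu_piR_035888 had 0 counts in all 3 astrocyte EV libraries and 28, 32 and 23 in the NSC EV libraries. It was at least 38.8-fold lower in astrocyte EVs against a floor of 3 counts over the group (edgeR adjusted p = 0.0156). Both mmu_piR_000273 and mmu_piR_035888 passed the low-count filter through the NSC EV libraries alone, so their calls are no separate support. These 2 rows were also named after their values were seen. mmu_piR_023310, on miR-449c-5p of a family known from multiciliated cells, had 0, 0 and 3681 counts in astrocyte EVs and 12, 0 and 7 in NSC EVs. All but 19 of its counts thus came from astrocyte EV replicate 3, and it did not pass the filter for the test.

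Among single rows on rRNA, mmu_piR_000691 led the whole list. It had 105211, 74144 and 86869 counts in astrocyte EVs and 7338, 5321 and 16475 in NSC EVs. After TMM scaling it stood at 1439 ± 976 CPM (counts scaled to the library size) in astrocyte EVs and 170 ± 113 CPM in NSC EVs (SD, n = 3). The groups did not overlap, with a log2 fold change of 3.08 ± 0.72 (edgeR adjusted p = 0.0367). The call was kept without astrocyte EV replicate 3 but lost without any 1 other library (edgeR adjusted p from 0.0629 to 0.0975). It was lost as well with the replicate block (edgeR adjusted p = 0.0965). The second 5S row, mmu_piR_002163, had 54796, 33871 and 72658 against 6939, 2267 and 14693 counts. It also did not overlap between the groups but missed the threshold (2.48 ± 0.76, edgeR adjusted p = 0.0732). mmu_piR_000691 had 143.6% of the counts of the 5S row that contains it, exceeding it in 5 of 6 libraries, and 4 more rows exceeded their host. Among those, mmu_piR_039147 and mmu_piR_039114 had 586% and 568% of the counts of a 29-base host and run past its end. By contrast, mmu_piR_000691, mmu_piR_006563 and mmu_piR_006423 lie inside their hosts. A row inside another cannot hold more of the same assigned reads, and how the counts came to differ was not tested.

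Large-subunit rRNA rows gave 6 of the 21 rows that were lower in astrocyte EVs, from 24 tested, beside 4.24% lower of all rows tested. Among the 6, mmu_piR_003040 (chr1:102628297-102628326) and mmu_piR_006156 (chr1:102628296-102628321) cover nearly the same bases, with 19841 and 18585 counts, so they are not independent. mmu_piR_000634, on an rRNA copy in an intron of Cdk8 (chr5:146261163-146261190), had 1166, 825 and 2882 counts in astrocyte EVs and 2543, 8720 and 5851 in NSC EVs (log2 fold change -2.23 ± 0.50, edgeR adjusted p = 0.0337). mmu_piR_000622 had 2105, 1728 and 4057 against 7866, 16642 and 5818 counts (-2.25 ± 0.47, edgeR adjusted p = 0.0284). Its call was lost without any 1 astrocyte EV library (edgeR adjusted p from 0.0612 to 0.111). Of the 24 tested rows on large-subunit rRNA 18 did not pass. mmu_piR_002643, the most abundant of them, had 39533, 21057 and 70790 counts in astrocyte EVs and 21699, 13003 and 34658 in NSC EVs, and the groups overlapped (0.55 ± 0.56, edgeR adjusted p = 0.552).

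Small-subunit rRNA gave 1 row that passed of 13 tested, beside 9.78% of all rows tested. Some of its other rows overlapped between the EV types, such as mmu_piR_000639 and mmu_piR_000219. mmu_piR_000639, on bases 863 to 893 of the 1847-base 18S rRNA, stood at 314 ± 153 CPM in astrocyte EVs and 318 ± 62.9 CPM in NSC EVs. mmu_piR_000219, on bases 1260 to 1286, stood at 251 ± 142 and 171 ± 71.7 CPM. mmu_piR_038328, on bases 650 to 679 of the same host, was the row that passed, with 94, 86 and 218 counts in astrocyte EVs and 376, 504 and 240 in NSC EVs (-1.88 ± 0.37, edgeR adjusted p = 0.0245). The more abundant mmu_piR_000578, mmu_piR_000619 and mmu_piR_005355 did not overlap between the EV types but missed the threshold (-0.94, -1.16 and -1.31, edgeR adjusted p = 0.112, 0.138 and 0.101). Whether rows of the same host differ in their change was not tested.

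A pair of rows at the very start of the 45S pre-rRNA gene fell as well. mmu_piR_000818 (chr17:39842998-39843025, plus strand) and mmu_piR_000310 share their counts in all 6 libraries, 126, 83 and 415 in astrocyte EVs and 1226, 769 and 1437 in NSC EVs. They counted as on no other class because the 45S row is not an rRNA or rfam row of the table, and adding it and the tRNA-like rows raised the overlapping rows from 87 to 89. The pair was lower in astrocyte EVs by -3.03 ± 0.46 on the log2 scale (edgeR adjusted p = 0.0162), and every NSC EV library was above every astrocyte EV library.

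**Figure D3:**
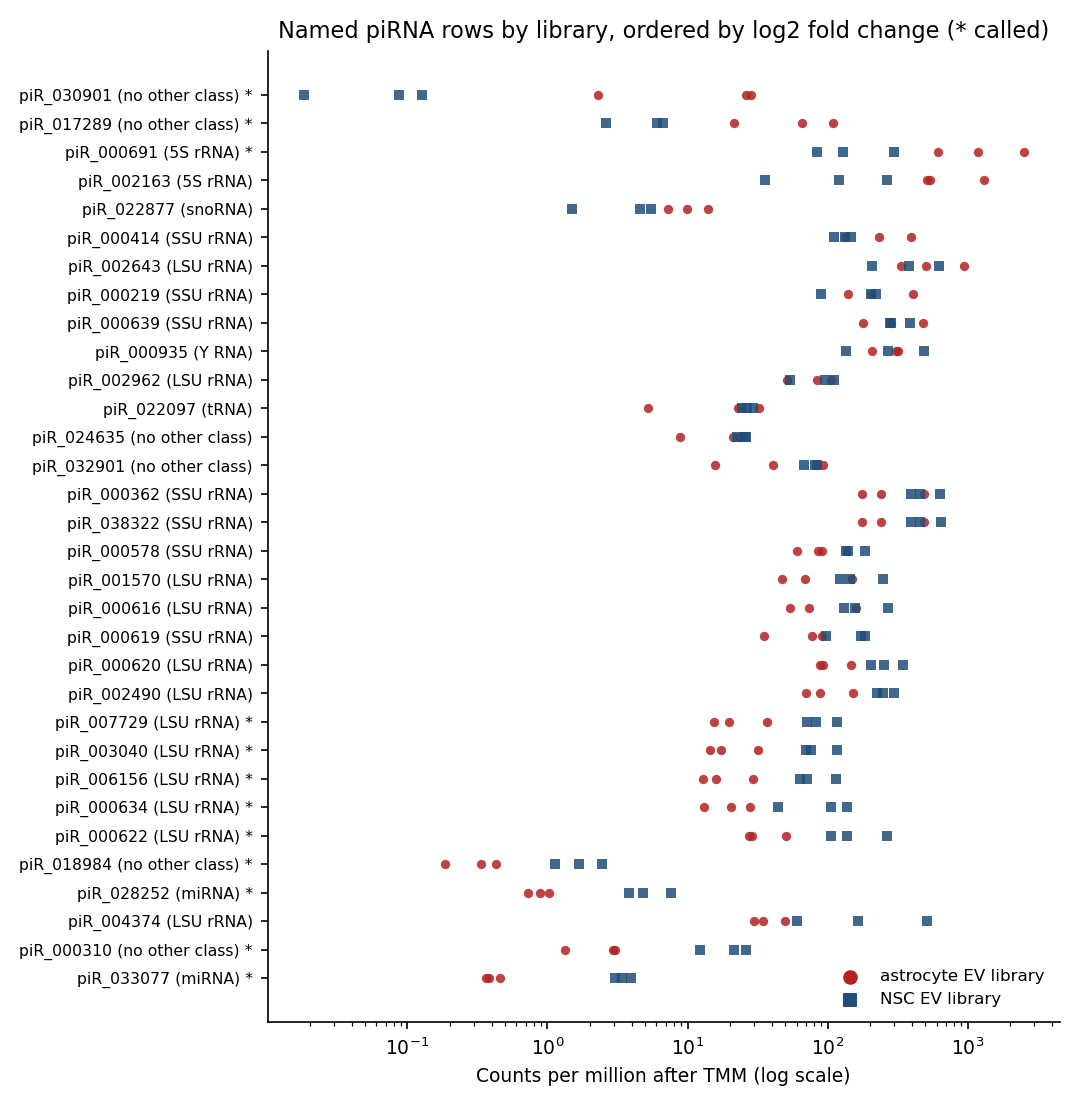
TMM-scaled CPM (x axis, log scale) of the named rows in each astrocyte EV library (red circles) and NSC EV library (blue squares), ordered by log2 fold change with the host in brackets and a star for an edgeR adjusted p under 0.05. mmu_piR_030901, mmu_piR_017289 and mmu_piR_000691 are at the top, and rows on miRNAs and large-subunit rRNA are at the bottom.

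Across the 157 rows that passed the edgeR low-count filter, 5 were higher and 21 were lower in astrocyte EVs at an adjusted p under 0.05. That is 16.6% of them, beside 9.78% of all 41308 rows tested. The higher rows were 3.18%, beside 5.54% of all rows, and the lower rows were 13.4%, beside 4.24% of all rows. With shared counts taken as one, the 26 rows are 4 sets of counts that were higher and 17 that were lower. Overlapping rows with unequal counts, such as mmu_piR_003040 and mmu_piR_006156, were not merged in these sets. The median log2 fold change was -0.70 over the 157 rows and -0.04 over all rows tested. A row could pass the filter through the group in which it was high, and the other members did not pass it. With a minimum of 10 counts in place of the filter all 960 were tested, and 7 were higher and 32 lower, 4.06% beside 7.55% of all rows, with a median of -0.03.

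The number of calls changed with the libraries used. Without astrocyte EV replicate 1 or without astrocyte EV replicate 2 edgeR called 0 members and 0 rows of the table, while 96 and 94 members had an unadjusted p under 0.05. Without NSC EV replicate 3 it called 1 member and 18 rows. With NSC EV replicate 1, astrocyte EV replicate 3 or NSC EV replicate 2 left out it called 48, 30 and 22 members. Those were 19.1%, 13.5% and 10.2% of the members tested, beside 5.84%, 9.63% and 4.96% of all rows tested. The median log2 fold change of the members tested was -1.08 and -1.06 without astrocyte EV replicate 1 and 2, over more members than in the full set. DESeq2 called 48 of the 157 rows, 14 higher and 34 lower. That is 30.6% of them, beside 19.1% of all 41308 rows tested.

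**Figure D4:**
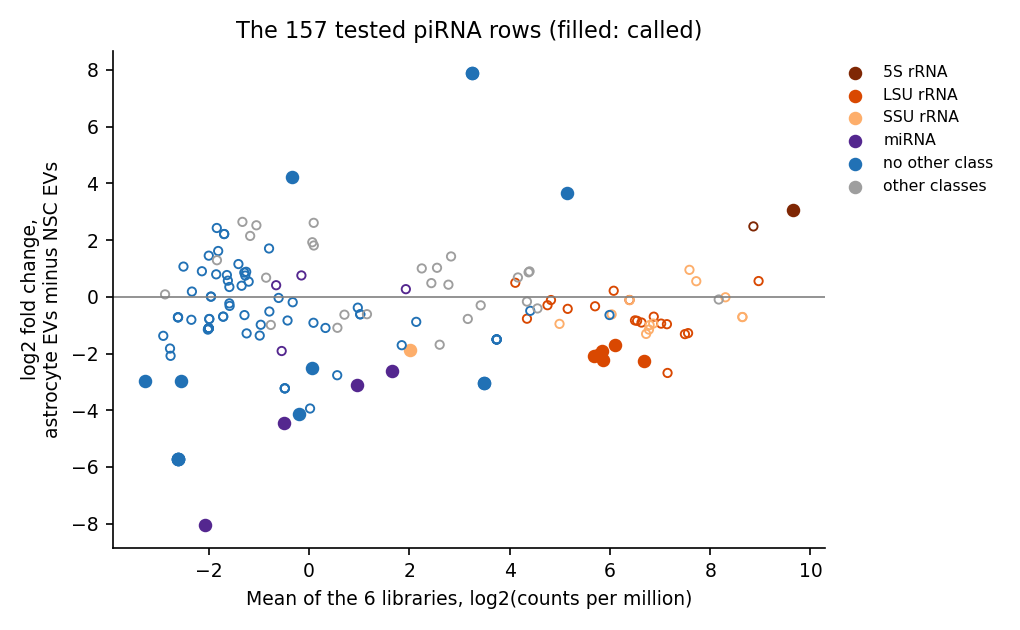
log2 fold change of the 157 tested rows (y axis, astrocyte EVs minus NSC EVs) by mean level (x axis, log2 CPM), coloured by host, with filled points for the 26 rows past the edgeR test. Filled points above 0 number 5 and those below 0 number 21.

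The remaining 873 rows lay on no other RNA class. GENCODE vM21 places 486 of them between genes, 203 in introns and 184 in exons. All but 1 were 16 to 33 bases long with a median of 29. The exception, mmu_piR_024635, spans 70474 bases of chr4 (chr4:41812497-41882970) and had 967, 1312 and 1257 counts in astrocyte EVs and 1504, 1423 and 1416 in NSC EVs, and any read in that stretch could be counted on it. Only 265 of the 873 had a count in every library, compared with 76 of the 87 overlapping rows.

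A sequence was held for 180 of the 873 rows and 56 of the 87, which is below 80% of either list, so a comparison of base use between the lists is void and the shares describe those rows alone. Of the 180 rows, 85.0% began with T (U in RNA) and 36.1% had A at base 10. Of the 56 overlapping rows 48.2% began with T and 19.6% had A at base 10. Of the 1141 rows under 10 counts with a sequence, 87.0% began with T. Among the sequences printed here with bases 1 and 10 in capitals, mmu_piR_021335 begins with T. There mmu_piR_033881, mmu_piR_000164 and the 3 18S rows do not. Of the 11 rows on rRNA with a sequence 4 began with T, among them the 18S rows mmu_piR_005355, mmu_piR_002435 and mmu_piR_004567.

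The single most abundant row on no other class was mmu_piR_032901 (chr4:80003921-80003944, minus strand), between genes, with 3876, 2541 and 2223 counts in astrocyte EVs and 4616, 5269 and 3761 in NSC EVs. It did not pass the test (log2 fold change -0.64 ± 0.57, edgeR adjusted p = 0.498). mmu_piR_017289 (chr16:33047627-33047657, plus strand), opposite an intron of Iqcg, had 4543, 4125 and 3022 against 347, 164 and 371 counts. It was clearly separated between the EV types (3.67 ± 0.66, edgeR adjusted p = 0.0209). mmu_piR_030901 (chr10:62663144-62663172, plus strand) and mmu_piR_031123 share 1190, 1636 and 324 counts in astrocyte EVs and 5, 8 and 1 in NSC EVs, opposite an intron of Stox1. They had the largest positive fold change of the list (7.88 ± 1.13, edgeR adjusted p = 0.0156). They passed the low-count filter through the astrocyte EV libraries, in which they were high, so their call is no separate support. mmu_piR_018984 (chr14:24113336-24113367, plus strand), between genes, had 18, 21 and 26 against 141, 106 and 62 counts and was lower in astrocyte EVs (-2.51 ± 0.48, edgeR adjusted p = 0.0232).

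Of the 83 tested rows on no other class 4 were higher and 10 were lower, beside 5.54% and 4.24% of all rows tested, so the higher rows were near the share in the table. Among the lower rows mmu_piR_006745 (chr5:113351516-113351546, plus strand) and 3 rows that overlap it share their counts, with 0, 1 and 0 counts in astrocyte EVs and 20, 28 and 9 in NSC EVs, so that they are 1 observation. They passed the low-count filter through the NSC EV libraries alone, and they were named after their values were seen. mmu_piR_000164, whose sequence is also in mt-Co1, had 122, 94 and 96 counts in astrocyte EVs and 312, 267 and 374 in NSC EVs. It missed the threshold (-1.71 ± 0.52, edgeR adjusted p = 0.0740), and whether its reads came from the nuclear copy or from mitochondria cannot be told apart by sequence.

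Rows on no other class were often in groups along the genome. Taking rows less than 20 kb apart as a locus, 363 of the 873 (41.6%) were in the 29 loci that held at least 5 of them. By that spacing 75.2% of all 6424 piRNA rows, but 52.7% of these 873, lay in the 103 loci with at least 5 rows of the table. Rows inside a locus are not independent, because neighbouring rows overlap and share reads: 327 of the 960 members had the same 6 counts as another member. Locus counts below take such rows once.

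The locus with most members, 36 rows on chr17:27288225-27365254, had 337, 731 and 511 counts in astrocyte EVs and 951, 589 and 1987 in NSC EVs. The locus on chr9:67693539-67760783 (21 rows) had 161, 323 and 354 against 431, 330 and 362 counts, and the one on chr2:92541437-92599406 (23 rows, all on the plus strand) had 20, 63 and 232 against 129, 106 and 114. The locus on chr15:59250486-59311086 (15 rows) had 149, 384 and 273 against 341, 390 and 421 counts. All 4 loci had counts in every library. After TMM scaling the chr17 locus stood at 3.62 to 11.7 CPM in astrocyte EVs and 9.35 to 36.0 CPM in NSC EVs, and the chr15 locus at 1.93 to 6.13 and 5.97 to 7.62 CPM, so that the groups overlapped in both. The chr9 locus, at 2.51 to 5.16 against 5.24 to 7.55 CPM, and the chr2 locus, at 0.478 to 1.64 against 1.68 to 2.26 CPM, did not overlap, each by a small gap. Loci were drawn from rows chosen by their counts, and their levels were not tested.

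Other loci had most of their counts in a few libraries. The locus on chr17:66152668-66233604 (15 rows) had 6, 9 and 2103 counts in astrocyte EVs and 121, 9422 and 2726 in NSC EVs. Within it mmu_piR_021335 had 0 counts in all astrocyte EV libraries and in NSC EV replicate 1, 8383 in NSC EV replicate 2 and 2533 in NSC EV replicate 3, and mmu_piR_033881 had 2031 of its 2118 counts in astrocyte EV replicate 3. The locus on chr18:67032157-67082726 (25 rows) had 45, 162 and 133 against 75, 6365 and 4219 counts. The locus on chr12:98382130-98449929 (21 rows) had 65, 152 and 120 against 24, 1043 and 77 counts. These 3 loci held 54.3% of the counts on no other class in NSC EV replicate 2 and 33.8% in NSC EV replicate 3, but 1.65% in NSC EV replicate 1. In the astrocyte EV libraries they held 0.831%, 2.19% and 13.4%. Their level thus differed between libraries of the same EV type in both groups, and the filter left mmu_piR_021335 out of the test. Of the 95 rows on no other class with over 90% of their counts in 1 library, 62 had them in astrocyte EV replicate 3, the deepest library, and 23 in NSC EV replicate 2.

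**Figure D5:**
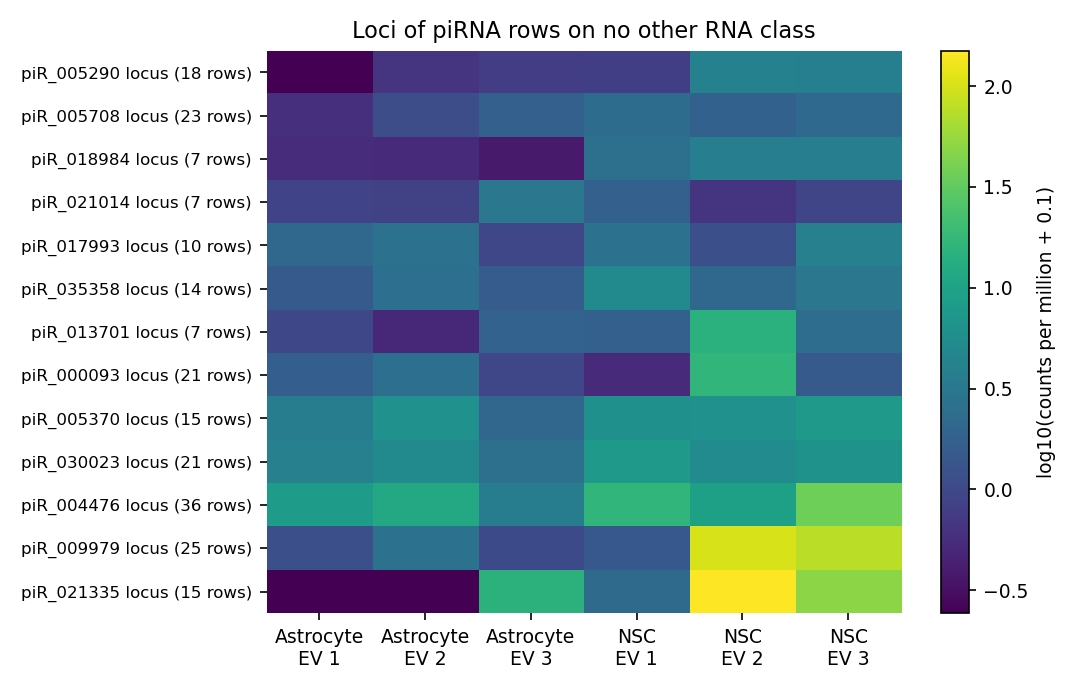
Level of the loci with at least 5 members and 500 counts (rows, named by their most abundant piRNA row) in each library (columns), as log10 of CPM plus 0.1. The loci of mmu_piR_021335 and mmu_piR_009979 are bright in NSC EV replicates 2 and 3, and that of mmu_piR_000093 in NSC EV replicate 2.

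As a share of the whole table, piRNA rows were a small class. The 960 rows took 0.511%, 0.458% and 0.536% of non-hairpin counts in the astrocyte EV libraries and 0.796%, 0.925% and 0.808% in the NSC EV libraries, without overlap (p = 0.1 by the exact permutation test, as small as it can be). With tRNA and rRNA rows taken out of the total, but not out of the piRNA counts, astrocyte EVs had 1.37% and NSC EVs 1.42% (exact permutation p = 1). Why the share differed less with that total was not tested. The rows on no other class were 0.0223% of non-hairpin counts in astrocyte EVs against 0.0773% in NSC EVs (exact permutation p = 0.1).

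Of the 25 piRNA pathway genes tested 1 passed. The list held 27 genes, of which 25 had a row, each spanning the gene with its introns. Gtsf1, a small zinc-finger protein that PIWI proteins need to cut their targets, had 820, 1426 and 2116 counts in astrocyte EVs and 434, 264 and 402 in NSC EVs. It was higher in astrocyte EVs without overlap (log2 fold change 1.59 ± 0.36, edgeR adjusted p = 0.0331), but the call was lost without TMM (edgeR adjusted p = 0.271), with piRNA library sizes (0.0543), with the replicate block (0.0904) and without any 1 library other than astrocyte EV replicate 3 (0.0536 to 0.116). The PIWI proteins themselves did not pass: Piwil1 had 45, 74 and 88 against 59, 69 and 41 counts (-0.01 ± 0.38, edgeR adjusted p = 0.994). Piwil2 had 518, 711 and 725 against 729, 708 and 757 counts (-0.39 ± 0.38, edgeR adjusted p = 0.541). Piwil4 had 59, 137 and 188 against 81, 110 and 80 counts (0.09 ± 0.33, edgeR adjusted p = 0.880).

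Per kilobase of the gene row, Piwil2 stood at 0.170 CPM in astrocyte EVs and 0.222 CPM in NSC EVs, and Piwil1 at 0.050 and 0.0498 CPM, while Mov10l1, a helicase needed to make piRNAs, had the highest level of the list per kilobase, at 0.959 and 0.885 CPM. Mov10l1 had 2085, 3738 and 13822 counts in astrocyte EVs and 4678, 2332 and 4013 in NSC EVs and did not pass (0.12, edgeR adjusted p = 0.885). It was named after its values were seen. The median log2 fold change over the 25 genes was 0.09, beside -0.04 over all rows tested, and 1 gene rose and none fell, beside 5.54% and 4.24% of all rows. Of the 25 genes 12 had more counts on the antisense row than on the gene's own row, so counts on these rows need not come from the mRNA.

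The same limit holds for marker genes of the cells. Their calls stand beside 5.54% higher and 4.24% lower of all rows tested with edgeR, and 19.1% called with DESeq2. Of 8 astrocyte markers 2 were higher in astrocyte EVs, Gfap (log2 fold change 1.85, edgeR adjusted p = 0.0263) and Aldoc (1.32, edgeR adjusted p = 0.0448), and 0 were lower. Other markers of that list had negative values that did not pass, such as Slc1a3 (-1.15, edgeR adjusted p = 0.238) and Slc1a2 (-0.80, edgeR adjusted p = 0.226), and the list summed to 27.6 to 33.2 CPM in astrocyte EVs and 29.2 to 50.4 CPM in NSC EVs. Of the 7 NSC markers tested 0 passed in edgeR or DESeq2 and 2 had an unadjusted p under 0.05, and Sox2 had from 3 to 67 counts per library. Germ cell markers (7 of 8 in the table) summed to 9.63 to 21.4 CPM in astrocyte EVs and 17.7 to 20.4 CPM in NSC EVs, Prm1 had 1 to 14 counts per library, and 0 of the 6 tested passed in edgeR or DESeq2 or had an unadjusted p under 0.05. Microglia markers summed to 14.2 to 18.8 and 15.1 to 23.5 CPM and oligodendrocyte markers to 12.8 to 28.5 and 13.9 to 24.1 CPM, with 0 past the edgeR test. DESeq2 called 0 microglia and 1 oligodendrocyte marker, and the same numbers had an unadjusted p under 0.05 in edgeR. Of the fibroblast markers Col1a2 was higher in astrocyte EVs (2.54, edgeR adjusted p = 0.0237), and the list summed to 10.1 to 21.3 CPM in astrocyte EVs and 8.24 to 8.91 CPM in NSC EVs. Red blood cell markers (4 of 7 in the table) summed to at most 1.48 CPM, and the 1 tested had an unadjusted p under 0.05 and was called by DESeq2 alone. The part of these cells in the piRNA rows was not tested.

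At the edge of the list, 78 rows had exactly 10 counts and were kept, and 113 rows had exactly 9 and were not. None of the 78 lay on another RNA class. All 6424 piRNA rows of the table had at least 1 count, and the 960 rows held 99.4% of the piRNA counts.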

How the data were processed

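Small RNA was sequenced from astrocyte EVs and NSC EVs (3 libraries each). The authors deposited whole-number counts per annotated row on mm10, without normalization, and those counts were used as deposited. Tools listed in the submitters' processing notes, with no version, are Bowtie, Bowtie2, bedtools, cutadapt, DESeq, FastQC and SAMtools. The counting of reads with several positions, and of strand, was not given in the sources used. The deposited tables of group means, fold changes and adjusted p-values from DESeq were not used. The kit differs between the paper and the series record, and this was not settled. 0 columns were unmatched and 0 rows had a blank identifier.

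The members and lists were chosen with earlier results of these data known. piRNA rows with at least 10 counts were kept and called overlapping when at least 1 base lay on the same strand in a tRNA, rRNA, rfam, snoRNA or miRNA row. Counts of non-hairpin rows (788 hairpin rows left out) were tested with edgeR 4.0.16 in R 4.3.3 (quasi-likelihood test after TMM and the filter on low counts, Benjamini-Hochberg adjustment over all rows, calls under 0.05). TMM factors ran from 0.488 to 1.42, and the biological coefficient of variation was 0.449. CPM means counts scaled to the library size after TMM. Fold changes are given with their SE. Shares were compared by exact two-sided permutation tests (scipy 1.17.1). A floor is 3 counts. The test script was tested on simulated data. DESeq2 1.42.0, other size factors, no TMM, piRNA library sizes, other filters, libraries left out, the replicate block, identical rows taken once, other overlap rules, a 2-fold minimum and 100 counts were alternatives, and the added 45S and tRNA-like rows were chosen after seeing the data. Overlaps, shares and plots were made in Python 3.11.15 with pandas 2.3.3, numpy 2.4.6 and matplotlib 3.10.9.

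Named rows were the 15 of largest share in each EV type, the 10 of largest fold change each way among called rows without overlap and with at least 1 CPM, the 5 most abundant on no class and the most abundant on each class, not all of them described. mmu_piR_000164, mmu_piR_000273, mmu_piR_000366, mmu_piR_000958, mmu_piR_004086, mmu_piR_006745, mmu_piR_033881, mmu_piR_034793, mmu_piR_035888, mmu_piR_038328 and the loci were chosen after their values were seen. So were mmu_piR_002435, mmu_piR_004567, mmu_piR_005355, mmu_piR_006423, mmu_piR_006563, mmu_piR_039114 and mmu_piR_039147. All pairs of replicates differed by more than sampling noise over the members (chi-square per degree of freedom of at least 41.6). The sequence of 1 host transcript is not reported here.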

Additional observations from a re-analysis of the deposited data

How the results depend on the processing

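The 87 overlapping rows stayed between 72 and 89 under every alternative, and the differences in share kept their sign in every one. The count of called members (26) moved to 48 with DESeq2, 41 without TMM, 79 without a filter and 17 with the replicate block. Those are 30.6%, 26.1%, 8.23% and 10.8% of the members tested, beside 19.1%, 9.57%, 9.19% and 3.01% of all rows tested. The count was 16 with identical rows taken once and 14 on no other class alone, and ran from 0 to 48 with 1 library left out. Without TMM the median of all tested rows moved from -0.04 to -0.54, and table calls split 738 higher and 3217 lower, against 2290 and 1750. Higher calls were 11 of 34 members with piRNA library sizes. Pathway genes called (1) moved to 6 with DESeq2, 0 without TMM, 3 without a filter and 0 with the replicate block, and ran from 0 to 2 with 1 library left out. The share of non-hairpin counts differed by -0.34 points in the paired comparison (exact sign-flip p = 0.25, the smallest 3 pairs allow). Same-numbered libraries did not deviate together (correlations 0.012, 0.026 and -0.17), but 3 libraries per EV type cannot show whether the numbers mark pairs.

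Log2 fold changes of rows that did not pass changed sign as follows, and the cause was not tested. Without TMM they were -0.044 for mmu_piR_002643, -0.15 for mmu_piR_000219 and -0.43 for Piwil4. With piRNA library sizes they were 0.14 for mmu_piR_000935, 0.038 for mmu_piR_000639, 0.066 for mmu_piR_002962 and 0.16 for Piwil1. With 1 library left out they ran from -0.43 to 0.47 for mmu_piR_000935, from -0.48 to 0.28 for mmu_piR_000639, from -0.025 to 0.85 for mmu_piR_000219, from -0.39 to 0.12 for mmu_piR_002962, from -0.95 to 0.055 for mmu_piR_022097, from -0.20 to 0.25 for Piwil1 and from -0.18 to 0.24 for Piwil4. The replicate block gave 0.069 for mmu_piR_000935. For Piwil1 no filter gave 0.0086 and a minimum of 10 counts gave 0.0068.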
